A study of Drosophila melanogaster with 22 samples.

Results

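Hearts of w1118 flies were compared with hearts of attp40 control flies, both at 1 week of age and both without a knockdown. The groups were taken from the sample titles, 3 libraries each, which together are 6 of the 22 libraries of the series. The series profiled open chromatin in isolated Drosophila melanogaster hearts by bulk ATAC-seq, in which a transposase cuts nuclear DNA where it is not covered by nucleosomes. Its other groups are w1118 at 5 weeks (3 libraries), attp2 controls (4), flies with RNAi against LamC (4) and flies with RNAi against the B-type lamin, which the labels call LamB and the annotation Lam (5), the last 3 at 1 week. Its stated purpose concerns ageing and lamin knockdown, so the strain comparison is one that the design allows rather than one that it names.

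The groups differ in more than a strain name. Per the design text, w1118 flies stand alone as the controls for age, with no driver mentioned. The attp40 flies are offspring of a cross with Hand-Gal4, a driver used for heart cells, and serve as controls for the LamB RNAi flies. The attp2 flies come from a cross with the same driver and serve as controls for LamC RNAi. The file names carry dates whose meaning is not given. The w1118 libraries at 1 week fall in March and April, attp40 replicates 1 and 2 in July and attp40 replicate 3 in February. Strain background, driver and date therefore cannot be told apart in the comparison of these 6 libraries. The sources used here give neither the sex of the flies nor whether a group's libraries came from separate dissections. The p-values therefore set a difference only against the spread among these libraries, part or all of which may be technical.

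As background, w1118 is a laboratory strain with white eyes that carries a deletion allele of w, the gene of an ABC transporter that brings eye pigment precursors into pigment cells. The names attp40 and attp2 refer to sites on the second and the third chromosome where transgenes are placed with a site-specific integrase, and control flies of that name carry the site without the RNAi hairpin. Laboratory strains differ at many inherited sequence variants, transposon insertions and copy number changes, any of which can move an open chromatin peak or keep reads from being placed in it.

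Each library came with its own list of peaks. The lists were made equally long, 8491 peaks, by keeping the strongest by the authors' −log10 p-value, and overlapping peaks were merged into regions. A region's score in a library is 1 if it holds that list's top-ranked peak and falls with rank to 0 if the list has no peak there. The score is a rank within a library. It does not measure the total amount of open DNA, and in whole hearts a site open in fewer cells cannot be told apart from a site less open in each cell. Regions were tested with limma if 3 or more of the 6 libraries had a peak, which left 8434, and a region is said to be called when its Benjamini-Hochberg adjusted p is under 0.05.

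The deposited lists held 11370, 10637 and 11095 peaks in w1118 and 9711, 9448 and 8491 in attp40, so the groups did not overlap in peak number. Covered length was 6513 ± 526 kb in w1118 and 5333 ± 812 kb in attp40 (SD, n = 3 each), and 53.6 ± 0.979% of w1118 peaks lay within 500 bp of a gene's end, against 57.3 ± 1.035% of attp40 peaks. None of 6 such measures passed a two-sided exact permutation test, which with 3 against 3 libraries cannot go below p = 0.1 (lowest adjusted p = 0.2). Across the tested regions the scores of w1118 libraries correlated with each other at r = 0.909 to 0.925, those of attp40 libraries at 0.870 to 0.915, and those of 1 library from each group at 0.840 to 0.883. The Jaccard index of covered bases was 0.738 within groups and 0.704 between them, a difference of 0.0338 (exact permutation test, one-sided, p = 0.1, the lowest that 10 splits can give).

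Of the 8434 regions, 69 were called, 0.818% of those tested. Peaks were higher in w1118 hearts at 31 of them (0.368% of those tested) and lower at 38 (0.451%). The size of the difference ran from 0.0835 at prage to 0.982 at a Y scaffold region, with a median of 0.401, while the median difference over all tested regions was 0.00137. In all 69 the scores of the groups did not overlap. Among all tested regions the groups did not overlap at 10.5% with w1118 higher and at 10.6% with w1118 lower. A total of 1305 regions (15.5%) had an unadjusted p under 0.05. The count fell to 13, 16 and 12 without w1118 replicates 1, 2 and 3, and to 12, 24 and 13 without attp40 replicates 1, 2 and 3. Only 9 of the 69 were called whichever library was left out, and 42 lost the call without each of the 6. The 42 include w, Kank, Mtp, sima, fzo and sev. The 9 were the regions at Jheh1 and Jheh2, at CG3594 and Lcp9, 2R:21848175-21848763, 2R:25285265-25285902, 3R:12476868-12477598, those on the unplaced scaffolds DS484309v1 and DS484314v1, and those at 1352 and 11514 on the Y scaffold. The other 60 lost the call without at least 1 library. The direction could not change for any of the 69 when 1 library was left out, since their groups did not overlap.

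The gene that gives w1118 its name was among the called regions. The peak at X:2796485-2797139, just past one end of the w gene span, scored 0, 0 and 0.109 in w1118 hearts and 0.487, 0.482 and 0.547 in attp40 hearts. The groups did not overlap. Both w1118 libraries at 0 had a weaker peak in their deposited list, below the 8491 kept. The difference was −0.47 ± 0.0745 (SE; limma adjusted p = 0.0218), and the call was lost whichever library was left out. The authors' fold enrichment of the peak was 4.39 in the only w1118 library whose shortened list had it, against 7.03, 8.27 and 7.81 in attp40. A second region at the other end of the gene, shared with the neighbouring CG32795, averaged 0.802 ± 0.0904 in w1118 and 0.932 ± 0.0209 in attp40 (SD, n = 3 each) and was not called (adjusted p = 0.139).

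Other genes that mark stocks or drive transgenes had no called region. The region at y, a body pigment gene often used as a marker, averaged 0.359 ± 0.0349 in w1118 and 0.445 ± 0.109 in attp40 (SD, n = 3 each; limma adjusted p = 0.659). In the separate libraries described below it averaged 0.381 ± 0.0383 in w1118 at 5 weeks and 0.0622 ± 0.0853 in LamB RNAi, against 0.49 ± 0.0975 in attp2 (SD; n = 3, 5 and 4). The y region was thus low in LamB RNAi (limma adjusted p = 0.0293 against w1118 at 5 weeks), while attp40 overlapped w1118. Both regions at v, an eye pigment enzyme gene whose mutant allele is carried by many RNAi stocks, differed by −0.02 and −0.04 (limma adjusted p = 0.925 and 0.791). Hand encodes the heart transcription factor whose regulatory DNA names the driver. Its region shared with Ufd4 averaged 0.665 ± 0.0268 in w1118 and 0.634 ± 0.0937 in attp40, and its region shared with CYLD 0.36 ± 0.229 in w1118 and 0.194 ± 0.174 in attp40 (SD, n = 3 each). Neither Hand region passed (limma adjusted p = 0.855 and 0.543).

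Msp300, the gene of a giant nesprin that anchors muscle nuclei and the gene in which the attP40 site is known to lie, held 5 tested regions. Their differences ran from 0.04 to 0.10, all higher in w1118 on average, and none passed (limma adjusted p from 0.202 to 0.851). The gene-end region that Msp300 shares with ND-13A, a subunit gene of respiratory complex I, scored 0.071, 0.315 and 0.320 in w1118 and 0.066, 0.331 and 0 in attp40, so the groups overlapped. The gene-body region at 2L:5107562-5108690 scored 0.969, 0.957 and 0.967 in w1118 and 0.951, 0.873 and 0.911 in attp40, without overlap (limma adjusted p = 0.202). The lamin genes gave no call either. The 2 regions at Lam differed by 0.01 and −0.10 (adjusted p = 0.971 and 0.298) and the 2 at LamC by 0.03 and −0.07 (adjusted p = 0.762 and 0.639).

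**Figure D1:**
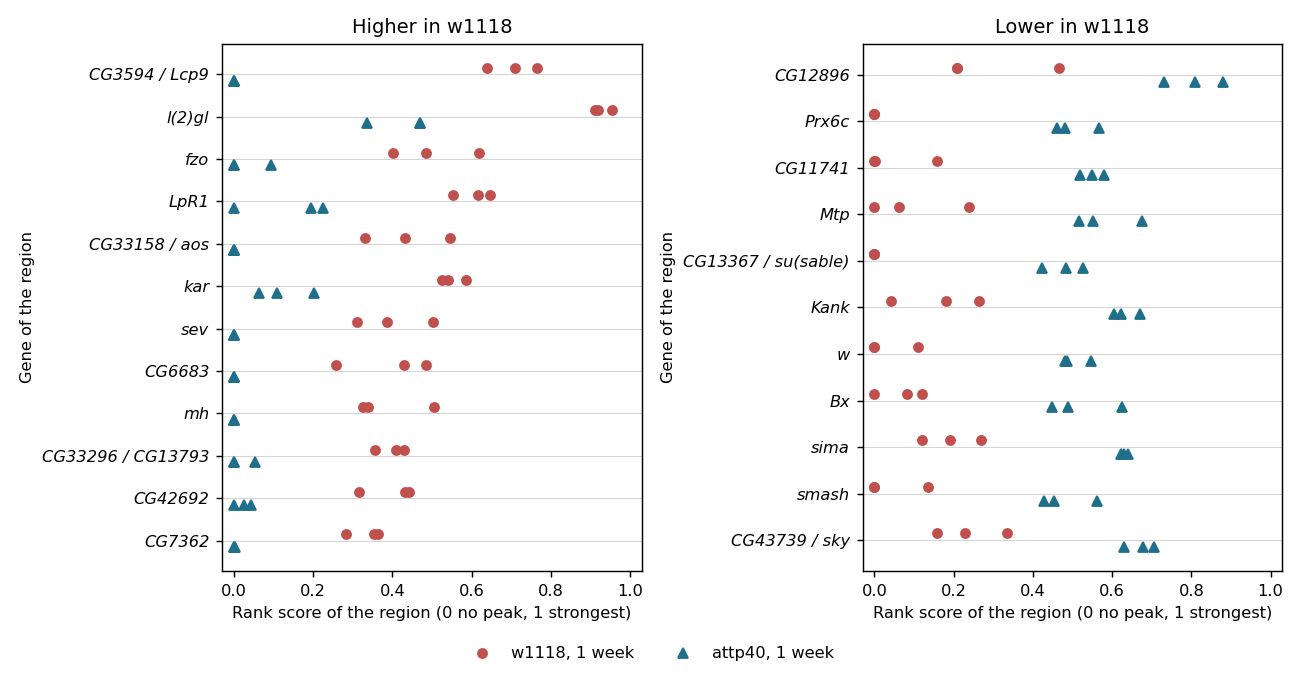
Rank score (x axis, 0 to 1) of each library at called regions with a gene, those named in the text as the highest in w1118 on the left and as the lowest on the right, 1 row a region, with w1118 as red circles and attp40 as blue triangles. At w the circles lie at or under 0.109 and the triangles at or above 0.482, and no row has circles and triangles that overlap.

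Among the 12 regions with a gene where w1118 scores were lowest relative to attp40, a pair of neighbouring peroxiredoxin genes held the first places. CG12896, listed in the gene table also as Prx12896, had a gene-end peak at 2R:10427985-10429134 that scored 0.209, 0.467 and 0.209 in w1118 and 0.732, 0.809 and 0.879 in attp40. At Prx6c, 9.38 kb away, no shortened w1118 list had a peak, while attp40 hearts scored 0.461, 0.481 and 0.566. Of the w1118 libraries, 2 had a weaker Prx6c peak in their deposited list, below those kept. Peroxiredoxins remove hydrogen peroxide and organic peroxides. The differences were −0.51 (adjusted p = 0.0322) and −0.50 (adjusted p = 0.0142, limma for both). The Prx6c region is among those that passed the filter only through the group where it is high.

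Other regions among the 12 lower ones lay at genes of varied function. Mtp, the microsomal triglyceride transfer protein that loads lipid onto lipoproteins, scored 0, 0.063 and 0.239 in w1118 and 0.675, 0.517 and 0.553 in attp40 (difference −0.48, adjusted p = 0.0433). A region 30.6 kb from it, in the bodies of CG43739 and of sky, a GTPase activator of synaptic vesicle recycling, averaged 0.241 ± 0.089 in w1118 and 0.671 ± 0.0391 in attp40 (SD, n = 3 each). At Kank, an ankyrin repeat protein found at muscle attachment sites, the gene-body peak 2R:14907967-14908461 scored 0.041, 0.263 and 0.180 in w1118 and 0.623, 0.605 and 0.670 in attp40. The groups at Kank did not overlap. smash, which encodes a LIM domain protein of adherens junctions, averaged 0.045 ± 0.0779 in w1118 and 0.481 ± 0.0715 in attp40 (SD, n = 3 each).

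Transcription regulators in that set included sima and Bx. sima is the fly HIF alpha, the oxygen-sensing transcription factor, and its gene-body peak scored 0.121, 0.190 and 0.268 in w1118 and 0.629, 0.623 and 0.639 in attp40 (difference −0.44, limma adjusted p = 0.04). Bx encodes a LIM-only cofactor of wing development and averaged 0.0674 ± 0.0612 in w1118 and 0.52 ± 0.0918 in attp40 (SD, n = 3 each). Both had non-overlapping groups. The set also held CG11741, at 0.0532 ± 0.0908 in w1118 and 0.549 ± 0.0309 in attp40, and by the gene-end region of CG13367 and su(sable), an RNA-binding regulator of transcripts, at 0 in each w1118 library and 0.484, 0.422 and 0.526 in attp40.

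The 12 highest regions with a gene in w1118 began with the shared gene end of CG3594 and Lcp9, a larval cuticle protein gene. The peak at 2R:24780799-24781107 scored 0.766, 0.711 and 0.638 in w1118 and 0 in each attp40 library, a difference of 0.71 ± 0.077 (SE; limma adjusted p = 0.00186). It too passed the filter only through w1118. Near l(2)gl, the tumour suppressor of cell polarity close to the tip of 2L, the region at 2L:5530-6071 scored 0.919, 0.911 and 0.954 in w1118 and 0.469, 0.471 and 0.336 in attp40 (difference 0.50, adjusted p = 0.00179). All 6 libraries had this peak, and it lost the call in 1 of the 6 fits with a library left out.

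Genes with known roles in testis, embryo and eye followed. fzo, the mitofusin of developing sperm, had a gene-end peak at 0.620, 0.401 and 0.486 in w1118 and at 0, 0.094 and 0 in attp40. LpR1, a receptor for the lipoprotein lipophorin, averaged 0.604 ± 0.0478 in w1118 and 0.14 ± 0.122 in attp40, opposite in direction to Mtp. mh, needed for paternal chromosomes in the early embryo, scored 0.326, 0.338 and 0.504 in w1118 and 0 in every attp40 library. The body of sev, the receptor kinase that specifies a photoreceptor, scored 0.312, 0.503 and 0.387 in w1118 and 0 in every attp40 library. A region in the body of aos, a secreted inhibitor of the EGF receptor, and of CG33158 scored 0.432, 0.331 and 0.545 in w1118 and 0 in every attp40 library. In the shortened lists these 3 regions had a peak in one group only, of middle or lower rank, and at sev 1 attp40 library had a weaker peak in its deposited list. kar, an eye colour gene of the monocarboxylate transporter family, averaged 0.551 ± 0.0317 in w1118 and 0.125 ± 0.0702 in attp40 (SD, n = 3 each).

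The remaining 4 of the 12 were CG6683, the gene end of CG33296 and CG13793, a region near CG42692 and the gene end of CG7362. Their w1118 means were 0.39, 0.399, 0.397 and 0.335, in that order, and their attp40 means 0, 0.0177, 0.023 and 0.000589.

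Further called genes lay outside the set named by size and are described because of their roles, after their values had been seen. Jheh1 and Jheh2 encode epoxide hydrolases that break down juvenile hormone, and Kr-h1 the zinc finger factor that responds to this hormone. The region between Jheh1 and Jheh2 scored 0.757, 0.761 and 0.805 in w1118 and 0.997, 0.992 and 1.000 in attp40, where it was among the strongest peaks of the lists. The attp40 SD at that region was 0.00398, and the difference of −0.22 ± 0.0191 (SE; limma adjusted p = 0.000465) was called without each library in turn. The second Jheh2 region, 1.82 kb away, averaged 0.6 ± 0.0454 in w1118 and 0.877 ± 0.046 in attp40. It did not hold its direction when peaks were ranked by fold enrichment, which was 6.54, 5.75 and 5.80 in w1118 and 5.63, 6.82 and 5.88 in attp40. The Kr-h1 region went the other way, at 0.913, 0.917 and 0.892 in w1118 and 0.742, 0.749 and 0.774 in attp40 (limma adjusted p = 0.0207). The Kr-h1 call was lost whichever library was left out. In the separate libraries described below Kr-h1 averaged 0.884 ± 0.0354 in w1118 at 5 weeks and 0.847 ± 0.0985 in LamB RNAi (SD; limma adjusted p = 0.773).

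Further called regions picked in this way lay at genes of metabolism. Cyp4p2, a cytochrome P450 gene, had no peak in the shortened w1118 lists and scored 0.392, 0.348 and 0.264 in attp40. Near Cyp313a3, another cytochrome P450 gene, the means were 0.751 ± 0.0264 in w1118 and 0.907 ± 0.0153 in attp40. The gene-end region of Ugt37D1 and Ugt37E1, glycosyltransferases that conjugate foreign and endogenous compounds, averaged 0.924 ± 0.0441 in w1118 and 0.683 ± 0.0652 in attp40. Gclm, the modifier subunit of the enzyme that starts glutathione synthesis, shares a gene-end region with wake, a gene of sleep timing, and that region averaged 0.834 ± 0.0739 in w1118 and 0.538 ± 0.0394 in attp40 (SD, n = 3 each). None of the 4 regions belong to the detoxification list described below, where 1 of 32 regions was called.

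A pair of receptor genes and a signalling kinase were lower in w1118 with small spread. CCKLR-17D3, a receptor for the satiety peptide drosulfakinin, scored 0.611, 0.528 and 0.521 in w1118 and 0.936, 0.955 and 0.902 in attp40 (difference −0.38, limma adjusted p = 0.00179). 5-HT7, a serotonin receptor, averaged 0.669 ± 0.0266 in w1118 and 0.888 ± 0.00898 in attp40 (SD, n = 3 each; difference −0.22, limma adjusted p = 0.0139). Its direction turned when a peak had to cover at least 50% of the region. The kinase sgg, the fly GSK-3, averaged 0.79 ± 0.0123 in w1118 and 0.903 ± 0.0146 in attp40 (difference −0.11, limma adjusted p = 0.045). The sgg call was lost whichever library was left out and held in 2 of 19 alternatives. In the separate libraries described below sgg was again lower in w1118 but did not pass (limma adjusted p = 0.0517).

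Called regions were unevenly placed. Gene ends, within 500 bp of the start or stop of a protein-coding gene, held 30 of the 69 (43.5%) and 61.9% of all tested regions. Gene bodies held 19 (27.5%, against 31.7% of those tested), and 4 lay within 5 kb of a gene. The remaining 16 had no gene within 5 kb, 23.2% of the called regions, while 2.40% of the tested regions had none. Put the other way, 7.92% of the 202 tested regions without a gene were called. The 16 include all 6 called regions on the Y and unplaced scaffolds. There a region counts as without a gene also if the annotation holds none for its scaffold. By chromosome arm, 11 were on 2L, 14 on 2R, 12 on 3L, 13 on 3R and 13 on X, between 0.659% and 0.855% of the regions tested on each. None of the 80 regions on chromosome 4 were called by limma, with 17 at an unadjusted p under 0.05. On the Y and unplaced scaffolds 6 of only 7 tested regions were called.

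The 2 largest differences of all were on the Y scaffold CP007111v1, whose place on the chromosome is not fixed in the build. The region at 1352-1822 scored 0.975, 0.961 and 0.966 in w1118 and 0 in every attp40 library, and the region at 11514-12194 scored 0.975, 0.980 and 0.990 in w1118 and 0 in every attp40 library. Both were among the strongest peaks of the w1118 lists. One more region of the scaffold, 26150-28060, scored 0.388, 0.444 and 0.485 in w1118 and 0 in attp40. In the deposited lists the whole scaffold had 4, 3 and 3 peaks in w1118 and 1, 0 and 1 in attp40. The attp2 lists had no peak on it, while w1118 at 5 weeks had 3, 4 and 4, LamB RNAi had 5 to 7 and LamC RNAi 3 each. Both RNAi groups thus had more peaks on this scaffold than their own controls. In the separate libraries neither of the 2 largest regions passed. The region at 1352-1822 averaged 0.941 ± 0.0255 in w1118 at 5 weeks and 0.825 ± 0.0648 in LamB RNAi (limma adjusted p = 0.154), and that at 11514-12194 averaged 0.99 ± 0.00697 in w1118 at 5 weeks and 0.522 ± 0.196 in LamB RNAi (SD, n = 3 and 5; limma adjusted p = 0.0606).

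The 3 called regions on unplaced scaffolds went in the opposite direction. On DS484314v1 the region at 1291-2359 scored 0.230, 0 and 0.003 in w1118 and 0.929, 0.967 and 0.906 in attp40, the largest lower difference (−0.86 ± 0.0838, SE; limma adjusted p = 0.0011). It was 0 in each attp2 library, unlike attp40. On DS484309v1 the region at 1347-1783 scored 0 in every w1118 library and 0.683, 0.618 and 0.620 in attp40. The region on DS484280v1 at 578-944 averaged 0.348 ± 0.137 in w1118 and 0.896 ± 0.0903 in attp40 (SD, n = 3 each). On the assembled arms, the region at 2R:21848175-21848763 stood at 0.872, 0.872 and 0.889 in w1118 and at 0.016, 0 and 0 in attp40, with no gene within 5 kb. At 3R:12476868-12477598, also without a gene, the scores were 0.680, 0.751 and 0.854 in w1118 and 0.039, 0 and 0 in attp40. The region at 2R:15109385-15109763 was lower in w1118, at 0.195, 0.197 and 0 in w1118 and 0.852, 0.761 and 0.674 in attp40. Near the end of 2R, 2R:25285265-25285902 was the strongest peak of the list in all 3 attp40 libraries, with a score of 1, and averaged 0.628 ± 0.0767 in w1118. A region 16.1 kb before it, 2R:25268883-25269132, was higher in w1118, at 0.603, 0.626 and 0.633, against 0, 0.146 and 0.112 in attp40.

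Of the 69, 13 lay within 50 kb of another called region, in 8 pairs, 6 of them of 1 direction. These were the 3 pairs on the Y scaffold and those of Prx6c with CG12896, of Jheh1 and Jheh2 with Jheh2, and of sky with Mtp. The opposite pairs were the one near the end of 2R and that of Btk, a Tec family kinase, with CG7781, 34.2 kb apart.

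A peak present in all libraries of one group and in none of the other was seen at 111 regions for w1118 (1.32% of those tested) and at 95 for attp40 (1.13%). Of these, 8 and 6 were called, and they had passed the filter on peaks only through the group where they are high. Counted the same way in the deposited lists at full length, where the w1118 lists are longer, 386 were present in w1118 alone and 28 in attp40 alone. The 69 called regions have 39 scores of 0 in w1118 libraries, of which 26 have a weaker peak in the deposited list. They have 39 scores of 0 in attp40 libraries, of which 5 have one, and the list of attp40 replicate 3 was not shortened at all. A 0 in w1118 was therefore in most cases a weak peak and not an absent one. A peak in all 6 libraries was seen at 32 of the 69 called regions and at 75.1% of the tested ones.

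The same contrast was then looked at in libraries that had no part in the calls, w1118 at 5 weeks and LamB RNAi at 1 week, for which attp40 is the control. These differ also in age and knockdown. Of the 69 regions, 66 differed in the same direction as in the first comparison, 95.7%, against 64.1% of all tested regions. An adjusted p under 0.05 in the same direction was reached by 27 (limma, fitted over all 8434 regions), against 1.97% of all tested regions passing in either direction, and 53 had an unadjusted p under 0.05 in the same direction. In the opposite direction none passed, and none had an unadjusted p under 0.05. Of the 38 lower regions all 38 were lower again and 20 passed, with a median difference of −0.35, against −0.42 at first. Of the 31 higher regions 28 were higher again and 7 passed, with a median of 0.15, against 0.39. Without any 1 of the 3 w1118 libraries at 5 weeks, 16 of the 69 passed.

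**Figure D2:**
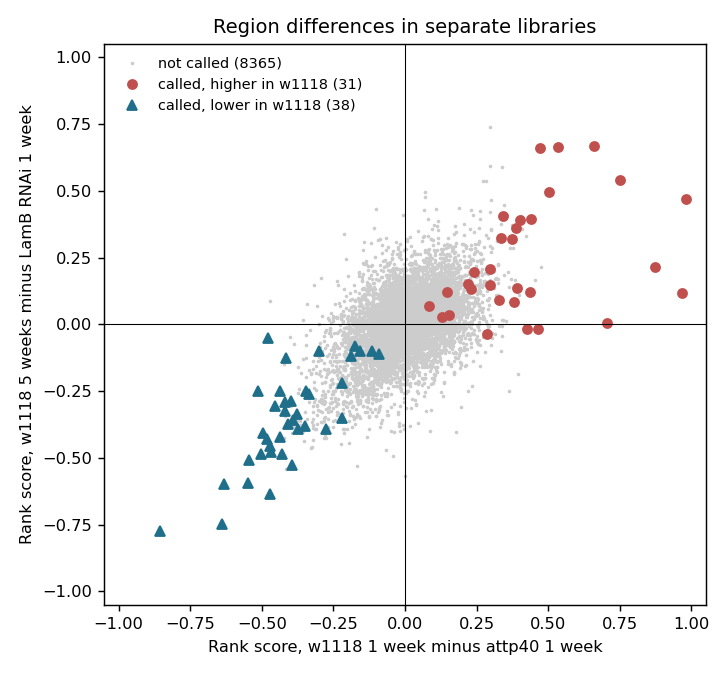
Difference in mean rank score of w1118 at 5 weeks minus LamB RNAi (y axis) against that of w1118 minus attp40 at 1 week (x axis), 1 point per tested region, with the called regions in colour. The called regions lie to the upper right and the lower left of the origin except for 3.

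At w the separate libraries averaged 0.0384 ± 0.0378 in w1118 at 5 weeks and 0.517 ± 0.0822 in LamB RNAi (SD, n = 3 and 5; limma adjusted p = 0.0136). Kank had 0.0421 ± 0.0488 in w1118 at 5 weeks and 0.679 ± 0.0615 in LamB RNAi (adjusted p = 0.00318), a difference of −0.64, against −0.47 at 1 week. fzo had 0.756 ± 0.0709 in w1118 at 5 weeks and 0.095 ± 0.125 in LamB RNAi (adjusted p = 0.0105). sev was again higher in w1118, at 0.391 ± 0.15 in w1118 at 5 weeks and 0 in all 5 LamB RNAi libraries (limma adjusted p = 0.0191). Prx6c again had no peak in the shortened w1118 lists and averaged 0.484 ± 0.159 in LamB RNAi. For the Jheh1 and Jheh2 region the means were 0.777 ± 0.0645 in w1118 at 5 weeks and 0.997 ± 0.00341 in LamB RNAi, near those at 1 week.

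Other regions did not pass in the separate libraries. CG3594 and Lcp9 averaged 0.618 ± 0.179 in w1118 at 5 weeks and 0.612 ± 0.0692 in LamB RNAi, both far above the 0 of the attp40 libraries. LpR1 had 0.467 ± 0.061 in w1118 at 5 weeks and 0.484 ± 0.124 in LamB RNAi, and kar 0.305 ± 0.267 in w1118 at 5 weeks and 0.323 ± 0.223 in LamB RNAi. Together with a region near CG43107, kar and LpR1 were the 3 regions with the opposite sign. At CG13367 and su(sable) LamB RNAi averaged 0.0517 ± 0.0633, close to the 0 of w1118 at 5 weeks and unlike attp40. Within the gene-free region at 2R:21848175-21848763 the means were 0.826 ± 0.0692 in w1118 at 5 weeks and 0.613 ± 0.0762 in LamB RNAi, against 0.00546 in attp40.

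In the separate libraries alone, the groups did not overlap, in the first direction, at 47 of the 69 regions and at 10.1% of all tested regions. Taking both ages of w1118 at once, all 6 w1118 libraries lay apart from all 8 attp40 and LamB RNAi libraries at 43 of the 69. Among all tested regions this held at 256 (3.04%). The count of 43 was made after the values had been seen and is a description, since all 69 were already apart in the first 6 libraries. Of the 43, 30 were among the 38 lower regions and 13 among the 31 higher ones. They include w, Kank, Mtp, sky, sima, smash, CG11741, Prx6c, both Jheh regions, CCKLR-17D3 and 5-HT7 on the lower side. On the higher side they include l(2)gl, fzo, sev, CG42692 and CG7362.

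The attp2 controls, from another landing site crossed with the same driver, are set beside these values without a test. The attp2 mean was nearer to attp40 than to w1118 at 55 of the 69 regions, 26 of the 31 higher and 29 of the 38 lower, where 51.5% of all tested regions were nearer to attp40. Mtp stood at 0.53 ± 0.0649 in attp2, sima at 0.577 ± 0.0967, CCKLR-17D3 at 0.911 ± 0.0463 and the Jheh1 and Jheh2 region at 0.993 ± 0.00483 (SD, n = 4 each), all near attp40. sev and the 3 Y scaffold regions had a score of 0 in every attp2 library, as in attp40. At w the attp2 mean was 0.311 ± 0.213, between both groups, with its libraries at 0.005, 0.326, 0.434 and 0.478. The peroxiredoxin pair split, with CG12896 at 0.224 ± 0.147 in attp2, near w1118, and Prx6c at 0.826 ± 0.0968, above attp40. LpR1 was at 0.016 ± 0.0321 in attp2, below attp40, and CG3594 and Lcp9 at 0.516 ± 0.347, with replicate 4 at 0.

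**Figure D3:**
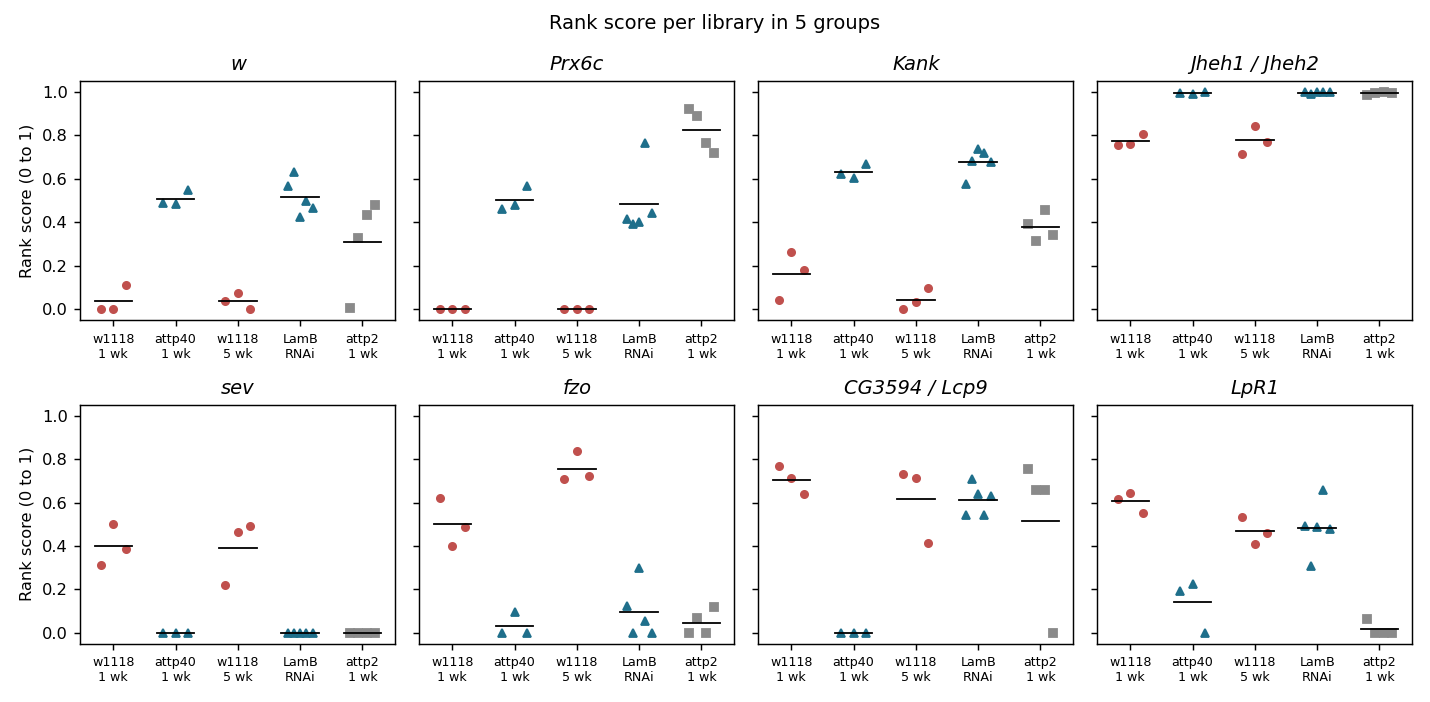
Rank score of each library (y axis, 0 to 1) in w1118 at 1 week, attp40 at 1 week, w1118 at 5 weeks, LamB RNAi and attp2, with a horizontal bar for each group's mean. Both w1118 groups sit low at w and Kank and high at fzo and sev, apart from attp40 and LamB RNAi.

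No region of the listed heart genes was called, while 0.818% of all tested regions were. Of 30 listed cardiac and mesodermal transcription factors 22 had a tested region, 21 of them with a peak in all 6 libraries, so these 21 were open in both groups. This did not set heart genes apart, as it also held for 8 of 9 hemocyte and 8 of 9 neuron and glia genes with a tested region. For cuticle protein genes it held for 3 of 6 and for chemoreceptor genes for 2 of 6. The 71 regions of the cardiac and mesodermal factors had a median difference of 0.0126, against 0.00137 for all tested regions. None were called by limma, and 14 had an unadjusted p under 0.05, where 15.5% of all tested regions did. The lowest p in that list was at mid, the fly Tbx20, with 0.946 ± 0.019 in w1118 and 0.866 ± 0.0261 in attp40 (SD, n = 3 each; limma adjusted p = 0.0862). Sarcomere and myofibril genes had 70 regions, 12 with an unadjusted p under 0.05, with a median of 0.0422 and no call, the lowest p being that of a region in Act5C, a cytoplasmic actin, at 0.481 ± 0.0935 in w1118 and 0.751 ± 0.0436 in attp40 (adjusted p = 0.0955). Ion channel and calcium handling genes (59 regions, median 0.0138, 9 with an unadjusted p under 0.05) and extracellular matrix and adhesion genes (72 regions, median 0.00432, 12 such) had no call. Their lowest p were at Orai, the store-operated calcium channel, and at the shared gene end of LanB2, a laminin chain, and CG3335. LanB2 scored 0.310, 0.236 and 0.462 in w1118 and 0 in attp40 (adjusted p = 0.0695). The Orai and LanB2 regions passed the filter only through the group where they are high. In the separate libraries LanB2 averaged 0.326 ± 0.171 in w1118 at 5 weeks and 0.228 ± 0.163 in LamB RNAi (SD, n = 3 and 5; limma adjusted p = 0.703).

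Markers of other cell types that a dissected heart can hold showed no called region in limma, and 1 to 4 regions per list with an unadjusted p under 0.05. Median differences were −0.0481 over 21 regions of hemocyte genes, −0.033 over 23 of fat body genes, −0.0114 over 28 of pericardial nephrocyte genes and −0.00102 over 27 of somatic muscle identity genes. Neuron and glia genes had the lowest median, −0.092 over 16 regions, of which 12 were lower in w1118. Their mean score was 0.422, 0.377 and 0.389 in w1118 and 0.474, 0.465 and 0.481 in attp40. Fat body genes averaged 0.3999, 0.382 and 0.389 in w1118 and 0.437, 0.403 and 0.455 in attp40. Library means did not overlap in 5 of the 22 lists, lower in w1118 for neuron and glia, fat body, germline and detoxification genes and higher for chromatin silencing and lamina genes. Single regions did not overlap at 10.5% of all tested regions with w1118 higher and at 10.6% with w1118 lower. The list means were not tested. The part of a different share of nerve or fat tissue in any result was not tested. Chemoreceptor genes had 7 regions with a median of 0.0455, no call and none with an unadjusted p under 0.05.

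Of the 700 tested regions of genes in any list 3 were called, 0.429% beside 0.818% of all tested regions, and all 3 were lower in w1118. They were w, Prx6c among the detoxification genes and sgg among the clock genes. The marker and driver list had a median of 0.0365 over 13 regions, the detoxification list −0.03 over 32 and the clock list −0.0221 over 37. Innate immunity genes had 40 regions with a median of 0.0207 and no call (limma), with 14 at an unadjusted p under 0.05. The lowest p among them was at PGRP-LA, of the peptidoglycan recognition family, with 0.277 ± 0.132 in w1118 and 0.698 ± 0.173 in attp40 (SD, n = 3 each; adjusted p = 0.0983). Stress response genes had 47 regions with a median of −0.0245 and no call, 6 of them at an unadjusted p under 0.05. The small lists of trachea and epidermis, gut and Malpighian tubule, cuticle and germline genes, of 6 to 9 regions, had medians from −0.0133 to 0.00815 and no call, with 1 to 3 regions each at an unadjusted p under 0.05.

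Insulin, TOR and lipid genes had 52 regions, a median of 0.00787 and no call (limma), with 15 at an unadjusted p under 0.05. The insulin receptor InR was nearest to one, with a gene-body region at 0.489, 0.345 and 0.343 in w1118 and 0.073, 0.103 and 0 in attp40 (adjusted p = 0.0752). It passed in the separate libraries, at 0.418 ± 0.0597 in w1118 at 5 weeks and 0.0433 ± 0.0631 in LamB RNAi (SD, n = 3 and 5; limma adjusted p = 0.0106). tj, a Maf transcription factor of gonadal somatic cells that stands in the germline list, was close too, with 0.32 ± 0.0599 in w1118 and 0.649 ± 0.0515 in attp40 (adjusted p = 0.0825). Its separate libraries averaged 0.269 ± 0.0118 in w1118 at 5 weeks and 0.733 ± 0.0904 in LamB RNAi (adjusted p = 0.0105, limma). foxo, the transcription factor that insulin signalling restrains, had a nearby region at 0 in every w1118 library and at 0.307, 0.187 and 0.489 in attp40 (adjusted p = 0.0983). The foxo region passed the filter only through attp40. In the separate libraries it averaged 0.0978 ± 0.0386 in w1118 at 5 weeks and 0.278 ± 0.114 in LamB RNAi (limma adjusted p = 0.233). Mitochondrial oxidative phosphorylation genes had 36 regions with a median of −0.00196, and chromatin silencing and lamina genes 62 with a median of 0.00934, with no call in either (limma), and 2 and 5 at an unadjusted p under 0.05.

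**Figure D4:**
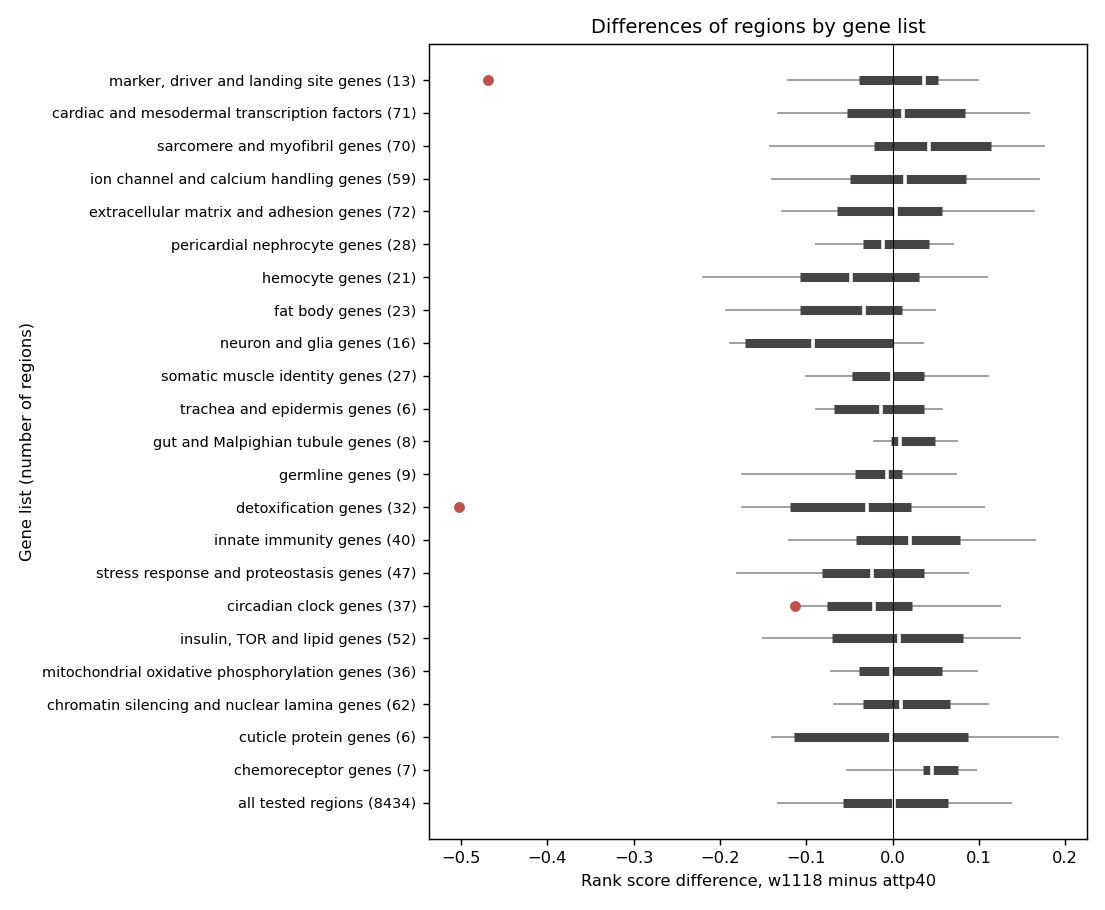
Difference in mean rank score, w1118 minus attp40 (x axis), by gene list, 1 row per list with its number of regions and all tested regions in the last row. Thick bars span the 25 to 75 percentiles, thin lines the 10 to 90 percentiles, white ticks mark medians, which lie between −0.092 and 0.0455, and red points mark the 3 called regions of listed genes, all left of 0.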

How the data were processed

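The data are 22 ATAC-seq peak lists in narrowPeak format, 1 per library. The submitters' processing notes name MACS2, Bowtie2, Picard and SAMtools and the build dm6. The sources used here give no versions, no settings and no transposase shift. Per the file format, the authors' lists hold a fold enrichment over background, which is a ratio, a −log10 p-value and an integer display score per peak, each relative to its own library. Reads were not used and depth is unknown, so no counting interval is given. Coordinates are those of the files, written from base 1.

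Every list was shortened to 8491 peaks, the length of the list of attp40 replicate 3, by the deposited −log10 p. Overlapping peaks of the 6 lists (at least 1 bp) were merged, and a region was kept if 3 or more of the 6 libraries had a peak. Each library's score is 1 minus the rank of its strongest peak there, from 0 for the first, as a share of the list. The test was limma 3.58.1 under R 4.3.3, with a trend on the mean, in a fit of the 6 libraries, and with the same fit for w1118 at 5 weeks minus LamB RNAi. Tables were handled with pandas 2.3.3, numpy 2.4.6 and scipy 1.17.1 under Python 3.11.15. The fit was also run on simulated scores, which were not held between 0 and 1 as the real ones are. No result given here rests on that run. Genes came from spans of the RefSeq annotation of Release 6, without strand: an end within 500 bp, then the body, then the nearest end within 5 kb. Exons and introns are not told apart. No sequence was used here.

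The comparison, its gene lists and the rule for named regions were chosen with earlier results of these data known. The rule took the 12 largest called differences with a gene per direction, the 3 largest without a gene, called regions and the lowest p of each of 22 gene lists, and 9 stock, driver, landing site and lamin genes. One region that the rule selects is not reported here. Of 490 listed genes 481 were found in the gene table, 8 under a newer symbol. Alternatives were list length, ranking column, score, filter, overlap, libraries, moderation, block, weights, chromosomes and each library left out. Correlations of the deviations of libraries with the same replicate number, which would pair the groups, are given in the closing section.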

Additional observations from a re-analysis of the deposited data

Results flagged for a closer look

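In 62 groups of 4 or 5 libraries at the named regions, 6 had 1 library that stood apart from the rest. A chance rate of about 1 in 20 for such a check assumes values without a floor. These scores are often exactly 0, so the count cannot be set against that rate. All 6 were in the groups set beside the comparison and none in the 6 libraries that gave the calls, whose groups of 3 are too small for this check. At Prx6c, LamB RNAi replicate 4 scored 0.766 and the other LamB RNAi libraries 0.393 to 0.444. At CG3594 and Lcp9, attp2 replicate 4 scored 0 and the others 0.656 to 0.752. At kar, attp2 replicate 4 scored 0.592 and the others 0.340 to 0.364. In 3 groups a single library had a peak and all others none: attp2 replicate 3 at CG6683 (0.423), attp2 replicate 1 at LpR1 (0.064) and LamB RNAi replicate 1 at CG33296 and CG13793 (0.023).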

How the results depend on the processing

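The number of called regions, 69 in the main fit (31 higher and 38 lower in w1118), changed with the processing. Of those found again, all had the same direction under every alternative except Jheh2, opposite when ranked by fold enrichment, and 5-HT7, opposite when a peak had to cover 50% of the region. In fits that reuse the same scores this could not be otherwise, since the groups did not overlap at any of the 69. Those are the fits without 1 library, without the trend, with weights, with the block or with all 22 libraries. The count was 260 with all deposited peaks (237 higher, 23 lower) and 18 with lists of 50% of the length. It was 131 on log2 of the −log10 p, 30 and 12 with a peak in at least 2 or 1 of 6 libraries, 163 with all 22 libraries in the fit, 110 without the trend, 112 with library weights and 30 on autosomes alone. Ranking by fold enrichment called 74 (48 higher, 26 lower, 40 shared with the 69). Covering 50% called 54 (39 higher, 15 lower, 21 shared), and summit windows 48 (21 higher, 27 lower). Without 1 library it was 12 to 24: 13, 16 and 12 without w1118 replicates 1, 2 and 3, and 12, 24 and 13 without attp40 replicates 1, 2 and 3.

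Peaks in w1118 alone numbered 111, and 386 with all deposited peaks, 55 with the shorter lists, 218 under the 50% cover, and up to 217 without 1 library (199 without attp40 replicate 1, 217 without attp40 replicate 2). Peaks in attp40 alone numbered 95, and 28, 60 and up to 147 (without w1118 replicate 3). The share passing in the separate libraries was 39.1%, and 23.2% (each w1118 library at 5 weeks) to 42.0% (LamB RNAi replicate 2) without 1 library. The difference in peak width of 8.67 bp became −15 bp without w1118 replicate 3 and −14.8 bp without attp40 replicate 3. On equal-length lists the difference in Y and unplaced peaks went to 0 and that in gene-end share to 1.18 percentage points, against −3.65. The cause of these shifts was not tested, except that list length enters the last ones by construction. With the replicate block 80 were called, 62 of them shared. Deviations of libraries with the same number correlated at 0.113, 0.108 and 0.0227, and w1118 replicate 3 correlated best with another number, so the numbers are not taken to pair the libraries. Of the named regions' values under alternatives, 873 kept side and direction, 264 no longer passed, 22 newly passed and 19 moved. Unknown depth limits what a score of 0 means.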
